A study of Mus musculus with 11 samples.

Results

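Leydig cells, which lie between the seminiferous tubules of the testis, make testosterone from cholesterol. The genes described here were chosen by name for this work: *Lhcgr*, *Insl3*, *Scarb1*, *Star*, *Cyp11a1*, *Fdx1*, *Cyp17a1*, *Hsd3b1*, *Hsd3b6* and *Hsd17b3*. All 10 were found by Ensembl gene ID among the 22259 genes counted in the testis libraries. RNA came from testes of adult *Ccer1*+/+ (wild-type, n = 3) and *Ccer1*-/- (n = 3) mice, labelled untreated. *Ccer1* is an intron-less germ cell gene, and the mutants carry CRISPR-Cas9 frameshift deletions present in every cell of the animal, made in C57BL/6J zygotes to ask what the gene does during sperm formation. The study made several deletion lines and took the one with the longest deletion into its further analysis, without naming the line again for the sequencing. The sources used here do not give the litter or exact age of each animal. Samples were described as independent without saying how many animals each held, so p values measure the spread between these samples.

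Luteinizing hormone from the pituitary binds its receptor on Leydig cells and raises cyclic AMP, which drives the supply of cholesterol to the inner mitochondrial membrane. There the side chain of cholesterol is cleaved to give pregnenolone, which enzymes of the endoplasmic reticulum turn into androgens. Testosterone acts on Sertoli and peritubular cells and is needed for germ cells to complete meiosis and spermatid maturation. Germ cells do not make it. Whole testis was sequenced, so each value averages over germ cells and all somatic cells, and fewer Leydig cells cannot be told apart from less RNA per Leydig cell.

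The libraries did not all sort by genotype. Totals ran from 15970289 to 19621550 counts. *Ccer1* itself fell to 0.167-fold (log2 fold change -2.58, edgeR adjusted p = 0.000736), from 439 to 610 CPM in *Ccer1*+/+ to 82.1 to 93.0 CPM in *Ccer1*-/- testes, where CPM are counts scaled to a common library size by TMM (trimmed mean of M values). *Ccer1*+/+ replicate 1 nevertheless had Pearson correlations of 0.984 to 0.990 with the *Ccer1*-/- libraries and of 0.965 and 0.970 with the other *Ccer1*+/+ libraries, on log2 CPM across the tested genes. Replicate 3 of both genotypes held low levels of macrophage and stroma markers, given with the steroidogenic genes below. Estimates of the members without *Ccer1*+/+ replicate 1 are given beside those over all libraries.

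Where a member lies bears on how its reads were counted, and the first sequences are shown for that reason. *Insl3* (ENSMUSG00000079019) occupies 8:71689252-71690577 in GRCm38, wholly inside the annotated span of *Jak3*, 8:71676383-71690577. Its estimated counts were not whole numbers in any library, while *Insl3* and *Jak3* together summed to a whole number, to within 0.01, in 6 of 6 libraries. *Jak3* received 1.16% to 2.00% of that sum. The 150 bases before the *Insl3* start site (chr8:71689102-71689251, plus strand, RefSeq, GRCm38.p6) are given below, with matches to AAGGTC, the core bound by nuclear receptors such as NR5A1, and to TATAA in capitals, each searched on both strands.
Insl3: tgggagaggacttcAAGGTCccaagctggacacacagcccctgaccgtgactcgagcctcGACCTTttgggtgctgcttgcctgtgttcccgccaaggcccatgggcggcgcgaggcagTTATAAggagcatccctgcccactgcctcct
The TTATAA in capitals holds TATAA on each strand, the copies overlapping. Of 32851 RefSeq windows from 250 bases before to 50 after a start site, 12.3% held AAGGTC and 24.9% held TATAA. Counted by gene, the shares were 13.9% and 28%. *Star*, *Cyp17a1* and *Scarb1* had no window and were not searched for any of these motifs. Among the 7 members with a window, AAGGTC occurred only in *Insl3*, and TATAA also occurred in *Cyp11a1* and *Fdx1*. In those genes it lay after the start site, at bases 16 to 21 in *Cyp11a1* and 16 to 20 in *Fdx1*. The *Cyp11a1* match was in a second window, chr9:58014702-58015001. These short forms were chosen after the longer CAAGGNCA (6.71% of windows) and TATAAA (13.6%) gave no match in the 7. TGACG, the core of a cyclic AMP response element, was present in 20.8% of windows. Among the 7 members with a window it occurred only in *Cyp11a1*, on the minus strand 46 to 50 bases before the start (chr9:57997963-57997989, GRCm38.p6), shown with the core in capitals.
Cyp11a1: tgctggggtacTGACGagggagggtta
A match of letters is a description of the window and not a tested site.

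*Hsd3b1* and *Hsd3b6* are the other pair whose reads could be confused. They are neighbours in one cluster on chromosome 3 (*Hsd3b6* 98805504 to 98814443, *Hsd3b1* 98842356 to 98859794) with *Hsd3b2*, *Hsd3b3* and *Hsd3b5*. Both coding sequences hold 1122 bases, and 112 of them differ, an identity of 90.0%. The longest identical stretch is 72 bases, from coding base 250 to 321, and no window of 100 bases is identical. The first 120 coding bases, on the minus strand of chromosome 3 in NCBIM37 and taken from the GENCODE M1 transcripts, show where the pair differs at the start of the protein, with the 20 differing bases of each gene in capitals. Differences are denser here than over the whole coding sequence.
Hsd3b1: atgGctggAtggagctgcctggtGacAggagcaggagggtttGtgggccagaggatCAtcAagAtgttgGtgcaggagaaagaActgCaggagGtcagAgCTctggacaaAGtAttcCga
Hsd3b6: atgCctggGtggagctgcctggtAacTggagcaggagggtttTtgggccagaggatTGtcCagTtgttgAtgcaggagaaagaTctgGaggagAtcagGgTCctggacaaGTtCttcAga
*Hsd3b2* is closer to *Hsd3b6* (94.4% identical, longest identical run 144 bases) than to *Hsd3b1* (89.3%), and its level was 0.729 to 2.21 CPM. *Hsd3b3* and *Hsd3b5* were at 0 counts in every library. Estimated counts of *Hsd3b1* were whole in every library, and those of *Hsd3b6* in every library but *Ccer1*-/- replicate 1 (1392.98). Those of *Hsd3b2* were not whole in any library. The sources used here do not state how reads fitting several of these genes were counted, so the *Hsd3b* values remain uncertain to that extent.

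Levels between genes are compared here per length of exon. In *Ccer1*+/+ testes *Insl3* had 1353 ± 626 CPM per kilobase (SD, n = 3), *Cyp17a1* 73.1 ± 18.9, *Cyp11a1* 51.2 ± 18.8 and *Hsd3b6* 42.0 ± 9.05. Below them lay *Hsd3b1* at 23.6 ± 8.63, *Scarb1* at 20.0 ± 2.70, *Star* at 17.9 ± 4.29 and *Hsd17b3* at 12.97 ± 2.76 CPM per kilobase. *Fdx1* at 7.22 ± 1.44 and *Lhcgr* at 1.56 ± 0.467 CPM per kilobase closed the order. The SD ranges of neighbours in this order overlapped from *Cyp17a1* through *Hsd3b6*, and from *Hsd3b1* through *Hsd17b3*. They did not overlap between *Insl3* and *Cyp17a1*, between *Hsd3b6* and *Hsd3b1*, between *Hsd17b3* and *Fdx1*, or between *Fdx1* and *Lhcgr*. In *Ccer1*-/- testes the first 4 places and the last 3 were held by the same genes in the same order, with *Insl3* at 1150 ± 208 and *Lhcgr* at 2.29 ± 0.449 CPM per kilobase, and *Star* (23.1 ± 6.67) stood just above *Hsd3b1* (22.9 ± 5.41) and *Scarb1* (18.8 ± 2.62).

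None of the 10 genes passed the test between genotypes. At an adjusted p under 0.05 the edgeR quasi-likelihood test called 0 of 10 members and 1 of 15139 genes tested, a background of 0.00661%. At an unadjusted p under 0.05 it found 0 of 10 members, against 2.89% of all genes (1.62% higher and 1.27% lower in mutants). In 0 of 10 members did the genotypes fail to overlap, against 8.34% of all genes. Positive estimates numbered 7 and negative ones 3 (55.4% of all genes were positive), and their median log2 fold change was 0.17, beside 0.04 over all genes. All 10 members passed the filter on low counts. The test of DESeq2 also called 0 members and found 0 at an unadjusted p under 0.05, while it called 0.0330% and found 3.49% of all genes.

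**Figure D1:**
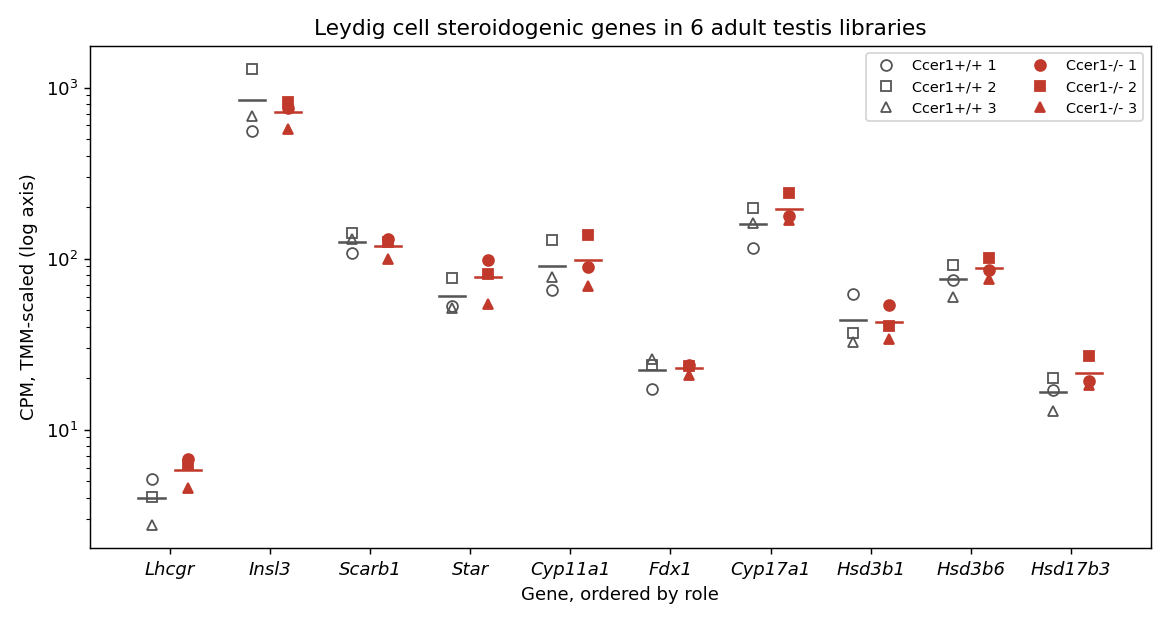
TMM-scaled CPM (log axis) of each gene in each library, with grey open symbols for *Ccer1*+/+ and red filled symbols for *Ccer1*-/- testes, symbol shapes for replicates 1 (circle), 2 (square) and 3 (triangle), and bars at group means. The genotypes overlap in 10 of 10 genes, and levels run from 2.76 CPM for *Lhcgr* to 1287 CPM for *Insl3*.

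*Lhcgr* (ENSMUSG00000024107) encodes the receptor for luteinizing hormone, through which the pituitary controls the whole pathway. It had the lowest level of the members. *Ccer1*+/+ replicates 1, 2 and 3 held 5.14, 4.02 and 2.76 CPM, and *Ccer1*-/- replicates 1, 2 and 3 held 6.76, 6.19 and 4.55 CPM. Only *Ccer1*-/- replicate 3 lay inside the *Ccer1*+/+ range, below *Ccer1*+/+ replicate 1. Its log2 fold change of 0.55 was the largest among the members (95% interval -0.10 to 1.20, edgeR adjusted p = 0.786). These values rested on 45 to 110 reads per library, the fewest of any member. Without *Ccer1*+/+ replicate 3 the log2 fold change was 0.30. Without *Ccer1*+/+ replicate 1 it was 0.71 and the adjusted p was 0.103 by edgeR, with an unadjusted p in that edgeR fit of 0.0316, a level of p under 0.05 reached by 36% of all genes there.

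*Insl3* encodes insulin-like peptide 3, the hormone of Leydig cells that guides descent of the testis in the fetus and that circulates as a product of mature Leydig cells in the adult. It made up 51.2% to 64.1% of the summed CPM of all 10 members. *Ccer1*+/+ testes held 558, 1287 and 684 CPM in replicates 1, 2 and 3. The mutants held 756, 821 and 572 CPM in the same order. *Ccer1*+/+ replicate 2 stood far above the other 5 libraries, and the lowest library was also *Ccer1*+/+, so the mutants fell inside the wild-type range. The log2 fold change was -0.23 (95% interval -0.89 to 0.42, edgeR adjusted p = 0.824). Leaving out *Ccer1*+/+ replicate 2 turned it to 0.15, and leaving out *Ccer1*+/+ replicate 1 moved it to -0.53 (edgeR adjusted p = 0.269). With 1 of the other 4 libraries left out it ran from -0.42 to -0.16.

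*Scarb1* encodes SR-BI, the receptor that takes up cholesteryl ester from high-density lipoprotein. Its levels were 107, 140 and 130 CPM in *Ccer1*+/+ and 130, 125 and 99.3 CPM in *Ccer1*-/- replicates 1, 2 and 3. With a 1.42-fold distance between its lowest and highest library it was the steadiest member. The log2 fold change was -0.09 (95% interval -0.44 to 0.26, edgeR adjusted p = 0.876), an interval of 0.736 to 1.20 on the fold scale. With 1 library left out it ran from -0.26 without *Ccer1*+/+ replicate 1 to -0.0448 without *Ccer1*-/- replicate 3.

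*Star* encodes the steroidogenic acute regulatory protein, which moves cholesterol to the inner mitochondrial membrane and sets the rate of acute steroid output. Replicates 1, 2 and 3 held 53.2, 77.2 and 51.2 CPM in *Ccer1*+/+ and 98.6, 81.4 and 54.0 CPM in *Ccer1*-/- testes. *Ccer1*-/- replicates 1 and 2 exceeded every wild-type library, and *Ccer1*-/- replicate 3 lay beside the lowest. The log2 fold change was 0.37 (95% interval -0.18 to 0.92, edgeR adjusted p = 0.786). It ran from 0.11 without *Ccer1*-/- replicate 1 to 0.53 without *Ccer1*+/+ replicate 2, and was 0.21 without *Ccer1*+/+ replicate 1 or replicate 3. With replicate 3 of both genotypes left out, an alternative chosen after the values were seen, it was 0.42, and *Star* and *Lhcgr* were the members whose genotypes did not overlap, 2 of 10 against 22.1% of all genes.

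*Cyp11a1* encodes the side-chain cleavage enzyme that makes pregnenolone, the committed step of the pathway. It measured 65.4, 128.5 and 78.5 CPM in *Ccer1*+/+ and 89.1, 136 and 69.5 CPM in *Ccer1*-/- replicates 1, 2 and 3. Replicate 2 was the highest of each genotype, and the genotypes spanned nearly the same range. The log2 fold change was 0.12 with a wide interval (-0.56 to 0.80, edgeR adjusted p = 0.918). It was -0.14 without *Ccer1*+/+ replicate 1, -0.03 without *Ccer1*+/+ replicate 3 and -0.26 without *Ccer1*-/- replicate 2. The pseudogene *Gm17322* overlaps the annotated span of *Cyp11a1* at 9:57998024-58027031, and the sources used here do not state whether counting used strand.

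*Fdx1* encodes ferredoxin 1, the small iron-sulfur protein that hands electrons to CYP11A1. Levels of 17.4, 24.0 and 25.8 CPM in *Ccer1*+/+ and of 23.9, 23.6 and 20.9 CPM in *Ccer1*-/- replicates 1, 2 and 3 gave a log2 fold change of 0.03 (95% interval -0.39 to 0.45, edgeR adjusted p = 0.967). The mutants lay together inside the wild-type range, whose lowest value was *Ccer1*+/+ replicate 1. The estimate was -0.20 without that library and -0.06 without *Ccer1*-/- replicate 1 or replicate 2.

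*Cyp17a1* encodes the enzyme with 17-alpha-hydroxylase and 17,20-lyase activity that turns pregnenolone and progesterone into androgen precursors. It had the second highest level per length. *Ccer1*+/+ replicates 1, 2 and 3 held 116, 197 and 162 CPM, and the *Ccer1*-/- replicates held 177, 241 and 169 CPM. The highest library was a mutant and the lowest *Ccer1*+/+ replicate 1, with the other 4 between 162 and 197 CPM. A log2 fold change of 0.31 (95% interval -0.18 to 0.79, edgeR adjusted p = 0.786) became 0.05 without *Ccer1*+/+ replicate 1 (edgeR adjusted p = 0.861), and 0.0637 without *Ccer1*-/- replicate 2.

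*Hsd3b1* and *Hsd3b6* encode 3-beta-hydroxysteroid dehydrogenases, which convert pregnenolone and its relatives to the steroids that carry the double bond of active hormones. *Hsd3b6* is known in mouse as the form of adult Leydig cells and *Hsd3b1* as the form shared with the adrenal gland and fetal Leydig cells. *Hsd3b1* held 62.1, 36.7 and 32.4 CPM in *Ccer1*+/+ and 53.5, 40.4 and 33.8 CPM in *Ccer1*-/- replicates 1, 2 and 3. *Hsd3b6* held 75.0, 92.3 and 59.7 CPM in *Ccer1*+/+ and 85.6, 101 and 76.4 CPM in *Ccer1*-/- replicates. *Hsd3b1* was highest in replicate 1 of each genotype, where *Hsd3b6* was highest in replicate 2. Their log2 fold changes were -0.04 (95% interval -0.65 to 0.57) for *Hsd3b1* and 0.21 (-0.20 to 0.63) for *Hsd3b6*, with edgeR adjusted p values of 0.967 and 0.786. That of *Hsd3b1* was 0.23 without *Ccer1*+/+ replicate 1 and 0.0475 without *Ccer1*-/- replicate 3. That of *Hsd3b6* was 0.14 without *Ccer1*+/+ replicate 1, 0.0206 without *Ccer1*+/+ replicate 3 and 0.0371 without *Ccer1*-/- replicate 2.

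The proportion of the pair was compared as well, with the same limit on how shared reads were counted. *Hsd3b6* made up 54.7%, 71.5% and 64.8% of the summed counts of the pair in *Ccer1*+/+ and 61.6%, 71.5% and 69.4% in *Ccer1*-/- replicates 1, 2 and 3. All 3 mutants lay inside the wild-type range. The difference of 3.79 percentage points did not hold up against the spread (two-sided exact permutation test, p = 0.7, where 3 against 3 cannot go below 0.1), and it was -0.696 percentage points without *Ccer1*+/+ replicate 1.

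*Hsd17b3* encodes the testicular 17-beta-hydroxysteroid dehydrogenase that reduces androstenedione to testosterone, the last step. Replicates 1, 2 and 3 held 17.2, 20.0 and 12.9 CPM in *Ccer1*+/+ and 19.2, 27.0 and 18.3 CPM in *Ccer1*-/- testes. One mutant exceeded every wild-type library, and the other mutants lay between *Ccer1*+/+ replicates 1 and 2. The log2 fold change was 0.37 (95% interval -0.14 to 0.88, edgeR adjusted p = 0.786). Leaving out *Ccer1*-/- replicate 2 gave 0.11, leaving out *Ccer1*+/+ replicate 3 gave 0.16, and leaving out *Ccer1*+/+ replicate 1 gave 0.32.

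**Figure D2:**
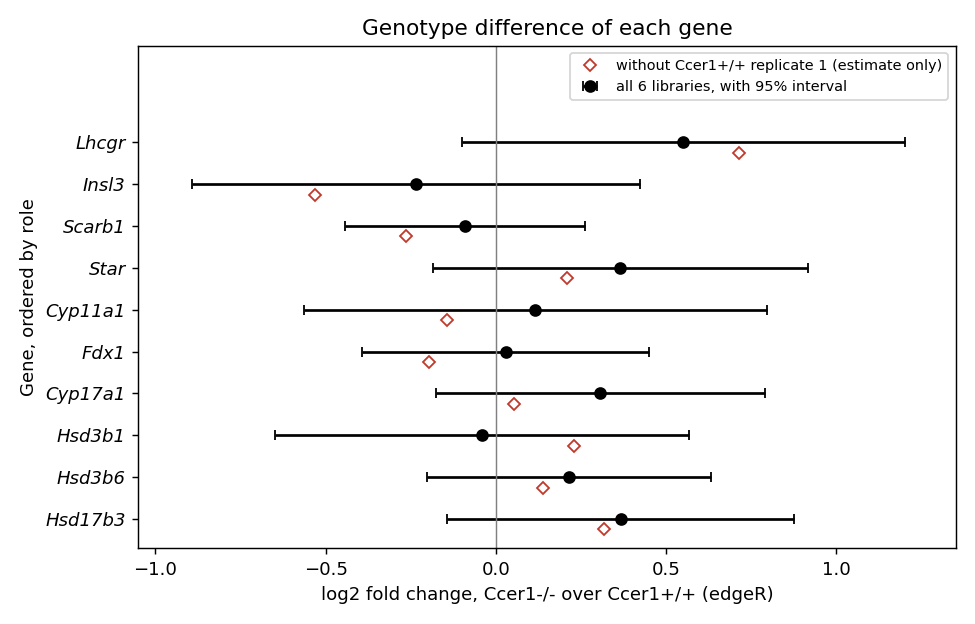
Log2 fold change of *Ccer1*-/- over *Ccer1*+/+ testes for each gene, with black points and 95% intervals derived from the edgeR test over all 6 libraries and red open diamonds for the estimate without *Ccer1*+/+ replicate 1. All 10 intervals include 0, from *Insl3* at -0.23 to *Lhcgr* at 0.55.

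Intervals, more than p values, state what these libraries could show. On the fold scale the upper bounds ran from 1.20 for *Scarb1* to 2.30 for *Lhcgr* and the lower bounds from 0.538 for *Insl3* to 0.933 for *Lhcgr*. Over all 6 libraries, a fall to 0.5 of the wild-type level lay outside the interval of 10 of 10 members. A rise of 1.5-fold lay inside the interval of 6 of 10, the exceptions being *Scarb1*, *Fdx1*, *Insl3* and *Hsd3b1*. The fall named here is a larger change than the rise, so the counts are not to be compared. Smaller falls lay inside some intervals, whose lower bounds were 0.538 for *Insl3*, 0.638 for *Hsd3b1* and 0.676 for *Cyp11a1*. These bounds depend on *Ccer1*+/+ replicate 1. Without it the log2 fold change was -0.53 (SE 0.29) for *Insl3* and -0.14 (SE 0.34) for *Cyp11a1*, and a fall to 0.5 is not said to be excluded there.

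The members also differed between libraries of one genotype. For *Lhcgr* and *Hsd17b3* the genotype difference (log2 fold changes of 0.55 and 0.37) exceeded the within-genotype SD of log2 CPM (0.38 and 0.31), and for the other 8 members it did not. Averaged over the 10 genes, the log2 deviation from each gene's own mean was -0.19, 0.19 and -0.26 in *Ccer1*+/+ replicates 1, 2 and 3 and 0.18, 0.28 and -0.20 in the *Ccer1*-/- replicates. Thus 3 libraries were high and 3 low, and each genotype supplied some of both. *Ccer1*+/+ replicate 2 and *Ccer1*-/- replicates 1 and 2 had 8, 9 and 9 members above their own mean, and the other 3 libraries had 2, 2 and 0. The summed CPM of the 10 genes was 1076, 2008 and 1239 in *Ccer1*+/+ and 1441, 1603 and 1118 in *Ccer1*-/- replicates 1, 2 and 3, or 0.110% to 0.200% of all counts. Without *Insl3* the sums were 518, 721 and 555 CPM and 684, 782 and 546 CPM. The same 3 libraries were low, and the highest was now *Ccer1*-/- replicate 2.

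**Figure D3:**
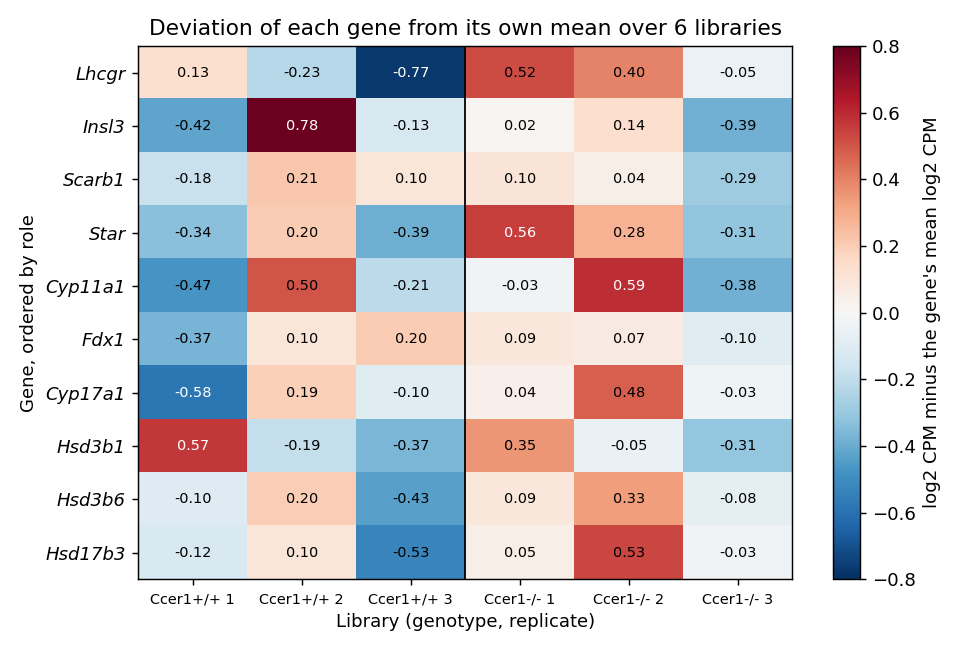
Log2 CPM of each gene (rows) in each library (columns) minus the gene's mean over the 6 libraries, red above and blue below that mean. Most of the genes are blue in *Ccer1*+/+ replicate 1 and in replicate 3 of both genotypes, while *Hsd3b1* is red (0.57) in *Ccer1*+/+ replicate 1, where *Cyp17a1* is blue (-0.58).

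The genes did not vary as one block. Over the 6 libraries, which share these features of library and depth, the 45 pairs of members had a median Pearson correlation of log2 CPM of 0.562. Above 0.8 lay 4 pairs, namely *Hsd3b6* with *Hsd17b3* (r = 0.962), *Cyp11a1* with *Cyp17a1* (0.866), *Cyp11a1* with *Insl3* (0.851) and *Insl3* with *Scarb1* (0.827). Below 0 lay 9 pairs, the lowest being *Hsd3b1* with *Fdx1* (-0.626) and *Hsd3b1* with *Cyp17a1* (-0.498). *Hsd3b1* and *Lhcgr* were the members that stood above the other *Ccer1*+/+ libraries in *Ccer1*+/+ replicate 1, by 0.85 and 0.63 on the log2 scale, whereas *Insl3*, *Cyp17a1*, *Cyp11a1* and *Fdx1* stood below them by 0.52 to 0.75. Transcripts of *Insl3* hold 63.6% G and C, those of *Lhcgr* 45.1% and those of *Fdx1* 44.4%, the lowest. Across the 10 members the shift of that library had a Pearson correlation with GC content of -0.529 and a Spearman correlation of -0.564. Over 14439 genes tested the same correlations were -0.644 and -0.679. The part of GC content in the members' values was not tested, and estimates with a fitted curve on GC content and length removed are given with the alternatives.

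*Insl3*, a hormone gene, and *Star*, a gene that responds to cyclic AMP, were also set against each other within each library, a comparison that does not depend on scaling. The log2 ratio of *Insl3* to *Star* CPM was 3.39, 4.06 and 3.74 in *Ccer1*+/+ and 2.94, 3.33 and 3.41 in *Ccer1*-/- replicates 1, 2 and 3. Only *Ccer1*-/- replicate 3 reached above the lowest wild-type value, and by 0.01. The difference of -0.50 gave p = 0.2 in a two-sided exact permutation test, where 0.1 is the smallest p possible. Their signs being known from the estimates above, the ratio is no separate evidence. It was -0.67 without *Ccer1*+/+ replicate 1, -0.34 without *Ccer1*+/+ replicate 2, -0.59 without replicate 3 of both genotypes and -0.17 for *Ccer1*+/+ replicate 1 alone against the mutants.

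Other somatic cells of the testis were read from marker lists, and their sums moved with the members in some libraries. The 10 macrophage markers summed to 101, 106 and 32.1 CPM in *Ccer1*+/+ and 106, 107 and 38.3 CPM in *Ccer1*-/- replicates 1, 2 and 3. The 6 stroma markers summed to 53.4, 68.1 and 20.3 CPM and to 63.1, 72.6 and 25.0 CPM. Replicate 3 of each genotype was lower than the other 4 libraries in both lists, as it was in the sums of 10 Sertoli markers (893 and 880 CPM against 1062 to 1322 elsewhere) and 7 endothelial markers (33.3 and 24.6 CPM against 40.4 to 56.8). Most of the Sertoli sum was *Clu*, at 811, 979 and 651 CPM in *Ccer1*+/+ and 884, 916 and 635 CPM in *Ccer1*-/- replicates 1, 2 and 3. *Sox9*, *Wt1*, *Cldn11* and *Gata1* were also lowest in both replicate 3 libraries, while *Amh*, *Dhh*, *Inha*, *Dmrt1* and *Aard* were not. The 7 peritubular myoid markers summed to 366 to 652 CPM, lowest in *Ccer1*-/- replicate 3 and highest in *Ccer1*+/+ replicate 2. The 3 red blood cell markers summed to 27.6 to 62.9 CPM with the same lowest and highest library. No marker of these 6 lists was at 0 in all libraries. Among the markers that define macrophages, *Adgre1* held 1.10 to 4.19 CPM and *Cd163* 0.0612 to 3.14 CPM. The part of cell composition in the low member levels of replicate 3 was not tested, and *Ccer1*+/+ replicate 1 was low in the members at 101 CPM of macrophage markers.

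**Figure D4:**
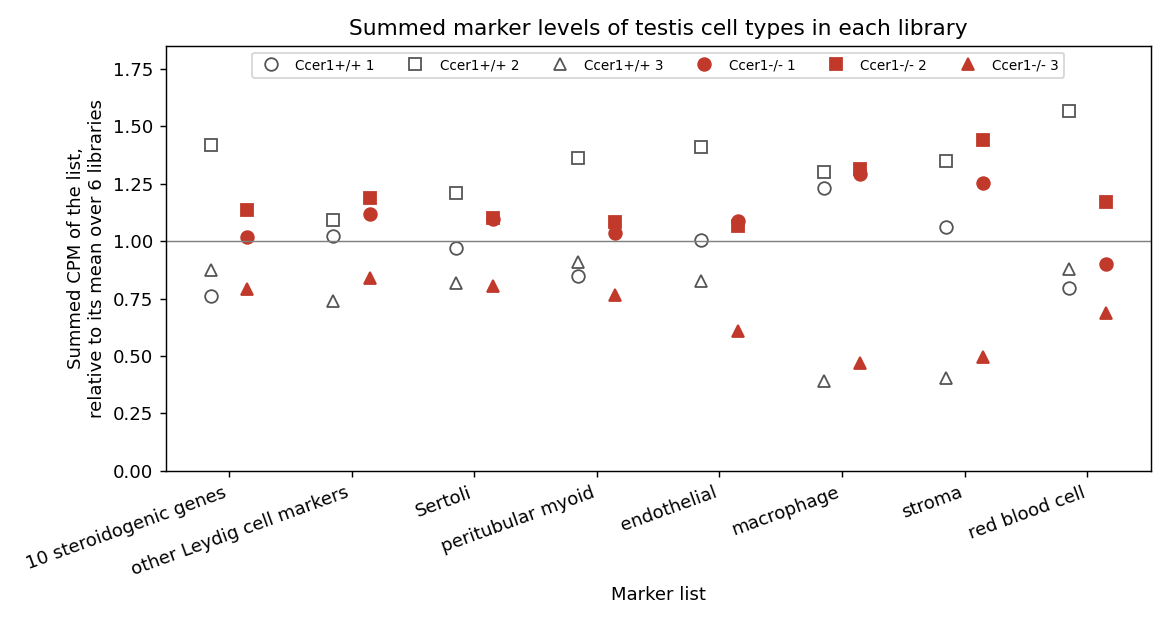
Summed CPM of each marker list in each library, divided by the mean of the 6 libraries, with symbols as in the plot of levels. Replicate 3 of both genotypes (triangles) lies lowest for macrophage and stroma markers, at 20.3 to 38.3 CPM, and low for the 10 steroidogenic genes, at 1239 and 1118 CPM. *Ccer1*+/+ replicate 1 lies lowest for the 10 steroidogenic genes, at 1076 CPM, with 101 CPM of macrophage and 53.4 CPM of stroma markers.

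Adrenal cortex uses much of the same pathway, so its own genes were checked. *Mc2r*, the receptor for adrenocorticotropic hormone, was at 0 counts in all 6 libraries. *Cyp11b1* and *Cyp11b2*, which finish corticosterone and aldosterone, stayed at or below 0.299 CPM. *Cyp21a1* held 0.546 to 1.67 CPM, far under the 65.4 to 136 CPM of *Cyp11a1*. *Mrap*, an accessory protein of that hormone's receptor, held 1.55 to 4.51 CPM, or 2.31 CPM per kilobase in *Ccer1*+/+ testes, a level near that of *Lhcgr*, and *Akr1b7* held at most 0.371 CPM.

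Genes around the members were then read by step of the pathway, from lists chosen by function and with no list test. Across these lists the main test called 0 genes. Among 8 electron transfer partners of the steroid enzymes, 4 estimates were positive, the median log2 fold change was -0.01 and 1 gene had an unadjusted p under 0.05. That gene was *Cyb5a*, cytochrome b5, which favours the lyase reaction of CYP17A1. It held 10.7, 14.3 and 12.2 CPM in *Ccer1*+/+ and 16.7, 20.2 and 16.3 CPM in *Ccer1*-/- replicates 1, 2 and 3, so every mutant lay above every wild-type library, as in 5.20% of all genes. Its log2 fold change was 0.52 (SE 0.18, edgeR adjusted p = 0.786). *Por*, the reductase that feeds electrons to CYP17A1, had a log2 fold change of -0.30 (SE 0.21, edgeR adjusted p = 0.786) with 18.9, 31.1 and 27.3 CPM against 21.3, 23.4 and 18.03 CPM.

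Cholesterol supply and import was measured by 16 genes, of which 12 had positive estimates, with a median log2 fold change of 0.17 and none at an unadjusted p under 0.05. In 2 of the 16, *Npc2* and *Dbi*, every mutant lay above every wild-type library, as in 5.20% of all genes. *Soat1*, which esterifies cholesterol for storage, held 40.9, 29.0 and 28.4 CPM in *Ccer1*+/+ and 46.8, 42.1 and 37.6 CPM in *Ccer1*-/- replicates 1, 2 and 3, overlapping by 1 mutant. *Npc2*, which carries cholesterol out of lysosomes, held 48.4 to 49.5 CPM in wild type and 55.1 to 58.0 CPM in mutants. *Dbi*, an acyl-CoA binding protein, held 23.1 to 23.5 CPM against 25.9 to 28.8 CPM. The log2 fold changes were 0.36 (SE 0.18) for *Soat1*, 0.20 (SE 0.12) for *Npc2* and 0.215 (SE 0.14) for *Dbi*. Each had an edgeR adjusted p of 0.786.

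LH receptor signalling, with 17 genes, had 6 positive estimates and a median log2 fold change of -0.07. In 3 of the 17 the genotypes did not overlap, all higher in mutants (5.20% of all genes), namely *Prkar2b*, *Prkar2a* and *Creb1*, a transcription factor of cyclic AMP signalling at 11.004 to 12.5 against 9.15 to 10.98 CPM. *Prkar2b* and *Prkar2a*, regulatory subunits of protein kinase A, held 6.82 to 9.35 against 5.19 to 5.69 CPM and 265 to 289 against 200 to 257 CPM. The log2 fold changes were 0.55 (SE 0.21) for *Prkar2b* and 0.25 (SE 0.13) for *Prkar2a*, with an edgeR adjusted p of 0.786 for both. *Prkar2b* alone in this list had an unadjusted p under 0.05. Germ cells of the testis also express *Prkar2a*, and the cell of origin of these values is not known.

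Among 15 transcription regulators, 13 were tested and 3 had positive estimates, with a median log2 fold change of -0.11. *Nr5a1* (SF-1), the nuclear receptor that drives most steroid enzyme genes, held 25.8, 32.3 and 21.7 CPM in *Ccer1*+/+ and 30.6, 31.3 and 17.4 CPM in *Ccer1*-/- replicates 1, 2 and 3, a log2 fold change of -0.01 (edgeR adjusted p = 0.993). It too was low in replicate 3 of both genotypes, and Sertoli cells also express it. *Mef2a*, a MADS-box factor, held 22.7 to 27.9 CPM in wild type and 30.8 to 38.2 CPM in mutants, the 1 gene of 13 without overlap (5.20% of all genes were higher without overlap), a log2 fold change of 0.41 (SE 0.16, edgeR adjusted p = 0.786), the one member of the list at an unadjusted p under 0.05. *Nr4a1*, an orphan nuclear receptor induced by luteinizing hormone, held 39.6, 59.0 and 52.6 CPM against 41.6, 44.4 and 45.5 CPM, a log2 fold change of -0.20 (SE 0.17, edgeR adjusted p = 0.786).

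Of 18 genes of other steroid and androgen metabolism 13 were tested, 8 of them with positive estimates, at a median log2 fold change of 0.11 and with 0 at an unadjusted p under 0.05. *Hsd17b11* and *Hsd17b12*, dehydrogenases of steroids and fatty acids, had log2 fold changes of 0.48 (SE 0.22) and 0.46 (SE 0.22), each with an edgeR adjusted p of 0.786. *Hsd17b12* held 15.3, 12.3 and 8.75 CPM in *Ccer1*+/+ and 16.8, 16.8 and 16.4 CPM in *Ccer1*-/- replicates 1, 2 and 3. It and *Hsd17b10*, at 7.73 to 8.63 against 8.80 to 10.8 CPM, were the 2 of 13 without overlap, against 5.20% of all genes.

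The other Leydig cell markers had positive estimates in 13 of 14 tested genes, against 55.4% of all genes. Their median log2 fold change was 0.26, and 0 were called or free of overlap. *Gsta3*, a glutathione transferase that isomerizes steroid precursors, held 29.5, 23.2 and 18.5 CPM in *Ccer1*+/+ and 38.5, 31.8 and 29.4 CPM in *Ccer1*-/- replicates 1, 2 and 3. Its log2 fold change was 0.48 (SE 0.20, edgeR adjusted p = 0.786), the only one of the list at an unadjusted p under 0.05. *Aldh1a1*, a retinal dehydrogenase, held 218, 196 and 137 CPM against 255, 254 and 186 CPM, a log2 fold change of 0.33 (SE 0.20, edgeR adjusted p = 0.786). Both were lowest in replicate 3 of each genotype. Other markers of the list differed less from 0 for their spread. The log2 fold change was 0.04 (SE 0.14, edgeR adjusted p = 0.939) for *Ptgds* and 0.38 (SE 0.36, edgeR adjusted p = 0.797) for *Vcam1*. *Fabp3* had the 1 negative estimate, -0.19 (SE 0.23, edgeR adjusted p = 0.822). *Hsd11b1*, a marker listed with the other steroid genes, held only 0.0612 to 0.698 CPM and was not tested. Summed over the list, levels were 940, 1006 and 680 CPM in *Ccer1*+/+ and 1031, 1091 and 772 CPM in *Ccer1*-/- testes.

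What *Ccer1*+/+ replicate 1 does to a count is shown by leaving it out. Calls at an adjusted p under 0.05 then numbered 3337 of 15345 genes tested, 21.7% (9.21% higher and 12.5% lower in mutants), while 0 of 10 members and 9 genes of the lists around them were called. Genotypes failed to overlap in 51.0% of all genes and in 3 of 10 members, *Lhcgr* higher and *Fdx1* and *Scarb1* lower in mutants. That library alone, set against the mutants, was outside their range in 50.3% of all genes and in 8 of 10 members. The 9 genes were *Soat1*, *Acsl4*, *Hsd17b12*, *Sult1e1* and *Gsta3*, higher by 0.48 to 1.3 on the log2 scale, and *Por*, *Lipe*, *Akap1* and *Nr4a1*, at log2 fold changes of -0.55 to -0.28. Called were 1 of 8 electron transfer partners, 2 higher and 1 lower of 16 cholesterol genes and 1 of 17 LH signalling genes. Also called were 1 of 13 transcription regulators, 2 of 13 other steroid genes and 1 of 15 other Leydig cell markers. No gene of the remaining lists was called. For 6 of the 9 the library left out lay inside the range of the mutants. No label gives a reason to drop it.

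Genes patterned most like the members over the 6 libraries were ranked by the Pearson correlation of log2 CPM with the members' mean standardized level. Of 13689 genes ranked, 151 had r above 0.9, and the leading ones were *Fads1* (0.986), *Hbb-b1* (0.983), *Hdc* (0.982), *Klhdc8b* (0.980) and *Pcca* (0.980). *Fads1*, a fatty acid desaturase, held 37.0, 49.8 and 34.3 CPM in *Ccer1*+/+ and 46.7, 54.0 and 35.7 CPM in *Ccer1*-/- replicates 1, 2 and 3. *Hbb-b1*, a globin of red blood cells, held 7.58, 13.7 and 7.29 CPM against 11.4, 13.8 and 6.98 CPM. With 6 libraries and this many genes such values describe the pattern only.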

How the data were processed

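For each of 6 testis libraries the deposited values are estimated counts of 22259 Ensembl genes, not scaled between libraries, of which 9.95% to 10.5% per library were not whole. Per the submitters' processing notes the build was GRCm38 (mm10) and the tools were StringTie 1.3.1, HISAT2, Bowtie2 2.2.8 and fastp 0.18.0. For the counting program and strand setting, nothing is given in the sources used here. RNA was selected with oligo(dT) and copied with random primers. Genotypes came from the labels. The Hi-C samples were not analysed here.

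Counts were rounded, filtered with filterByExpr (minimum count 10, minimum total 15, 15139 genes kept), scaled by TMM and tested for genotype with the two-sided quasi-likelihood F test of edgeR 4.0.16 in R 4.3.3, with Benjamini-Hochberg adjustment over all genes tested. Ratios were compared by exact permutation tests over every split of the libraries, written in Python 3.11.15. Symbols were found for 20314 genes. Exon lengths and GC content come from GENCODE M1 on NCBIM37, gene positions and promoters from RefSeq. *Rhox5*, *Hbb-bs*, *Hbb-bt*, *Hsd17b8* and *Trf* were not matched by symbol to a single row. The red blood cell sum also leaves out the row of *Hbb-b1*, a symbol that was not on that list.

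The members and all lists were chosen with earlier results of these data known. Named were all members, *Ccer1*, up to 4 tested genes per other list by smallest p, the 5 genes of most similar pattern, and low markers. *Nr5a1*, *Dbi*, *Jak3*, *Lipe*, *Sult1e1*, *Hsd3b2*, *Adgre1* and *Cd163* were named outside this rule after their values were seen. So were *Clu*, *Sox9*, *Wt1*, *Gata1*, *Inha*, *Dmrt1*, *Ptgds* and *Fabp3*. Alternatives were DESeq2 size factors, upper quartile factors, scaling by totals, DESeq2 1.42.0 as the test, an unfiltered table, a minimum of 10 counts per library, a replicate block and each library left out. Added after the data were seen were replicate 3 of both genotypes left out, *Ccer1*+/+ replicate 1 alone against the mutants, and a curve on GC content and length removed (splines of 5 degrees of freedom).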

Additional observations from a re-analysis of the deposited data

How the results depend on the processing

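No member passed an adjusted p under 0.05 in any of 160 estimates (10 members, 16 alternatives), and 18 of these estimates reversed in sign. *Star*, *Cyp17a1*, *Hsd3b6*, *Hsd17b3* and *Lhcgr* never reversed. The median log2 fold change of the members, 0.17 in the main fit, ran from -0.01 without *Ccer1*-/- replicate 2 to 0.37 without *Ccer1*+/+ replicate 2. Its sign thus reversed without *Ccer1*-/- replicate 2. Every alternative lay within 0.26 of 0.17, where 0.26 is the within-genotype SD of the libraries' median member deviation. That margin is wider than the estimate itself.

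*Fdx1* was at -0.0175 with DESeq2 size factors, -0.00274 with upper quartile factors, -0.0170 in the DESeq2 test, -0.0235 with a minimum of 10 counts per library and -0.25 with the GC and length curve removed. That curve turned *Insl3* to 0.0432 and *Scarb1* to 0.0220 on the log2 scale. Against the mutants, *Ccer1*+/+ replicate 1 alone gave 0.34 for *Insl3*, 0.12 for *Scarb1*, 0.12 for *Por* and 0.13 for *Nr4a1*. With single libraries left out, the log2 fold changes ran from -0.26 to 0.40 for *Cyp11a1*, from -0.28 to 0.23 for *Hsd3b1*, from -0.20 to 0.0933 for *Fdx1* and from -0.53 to 0.15 for *Insl3*.

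The share of *Hsd3b6* in the pair differed by -0.696 to 7.72 percentage points with a library left out. Genes called numbered 5 in the DESeq2 test, 0 with replicate 3 of both genotypes left out (edgeR, 121 genes at an unadjusted p under 0.05), 2 with the curve removed and 1 to 3337 with a library left out, the largest without *Ccer1*+/+ replicate 1. Genes at an unadjusted p under 0.05 numbered 780 for *Ccer1*+/+ replicate 1 alone, a fit that takes all its spread from the mutants and assumes the lone library varies like them, and 161 to 5519 with a library left out. Members at that p numbered 1 for *Ccer1*+/+ replicate 1 alone and 0 to 1 with a library left out. Genes of the other lists called numbered 0 to 9 with a library left out. Members whose genotypes did not overlap numbered 2 with replicate 3 of both left out (22.1% of all genes), 8 for *Ccer1*+/+ replicate 1 alone (50.3%) and 0 to 3 with a library left out, where all genes reached 51.0%. The causes were not tested.

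The main test did not pair replicates, and the sources used here do not say what a shared number stands for. Same-numbered libraries deviated together with r = 0.06, 0.35 and 0.47 for replicates 1, 2 and 3. *Ccer1*-/- replicate 1 followed *Ccer1*+/+ replicate 2 most (0.27), while *Ccer1*-/- replicates 2 and 3 followed their own number most. Deviations from a mean of 3 libraries cannot show whether same-numbered libraries shared a batch or litter. With a replicate block, 1 gene and 0 members were called, 959 genes had an unadjusted p under 0.05, and 1 member did (*Lhcgr*).

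With 3 libraries per genotype and within-genotype SDs of 0.21 to 0.50 on the log2 scale, a 1.5-fold rise lay within the 95% interval of 6 of 10 members. Falls also lay within the intervals, down to 0.538-fold for *Insl3* and 0.638-fold for *Hsd3b1*. Whole-testis RNA does not separate Leydig cell number from RNA per cell.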
